A study of Mus musculus with 10 samples.

Results

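Skeletal muscle fibres form when mononucleated myoblasts align, adhere and fuse, and a fibre then depends on rapid resealing of its plasma membrane. Fusion is driven by the muscle-specific membrane proteins myomaker and myomixer after cells have been held together by cadherins and immunoglobulin-type adhesion molecules. Resealing uses calcium-sensing ferlins, the ubiquitin ligase TRIM72, the anoctamin ANO5 and membrane-shaping ATPases such as EHD2, and several of these proteins also act in fusion. The 10 genes described here cover both processes: the fusogens Mymk (myomaker) and Mymx (myomixer), the adhesion molecules Cdh15 (M-cadherin), Cdh2 (N-cadherin) and Ncam1, and the repair genes Dysf, Myof, Ano5, Trim72 and Ehd2. They were chosen by name, and both they and the gene lists used below were chosen with earlier results of these data known. Each of the 10 matched 1 identifier of the deposited table, which lists 57010 in all, and all 10 passed the filter on low values.

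The libraries came from C2C12 cells, a mouse myoblast line, with the genotype label WT, whose cells fuse into myotubes in low serum. One group of 5 received adenovirus encoding Arrdc2+Gfp, and the other group of 5 received adenovirus encoding Gfp only. Every culture was differentiated for 3 days on collagen-coated plates in medium with horse serum and insulin before the virus was added, and all libraries carry the time label 48 h. Both groups therefore received adenovirus and Gfp, and the cells are described as myotubes at infection. Arrdc2 encodes an alpha-arrestin, an adaptor between membrane proteins and ubiquitin ligases, and the comparison asks which transcripts differ when it is delivered to formed myotubes. Nothing in the labels ties a library to its own culture, so the spread behind each p-value is that between these libraries and may be technical.

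Values per library are normalised reads: whole read counts solved back from the deposited regularized log values and divided by each library's size factor. Libraries are named by the number in their column, which is not the replicate number of the labels. Recovered depth was 25.61 ± 2.09 M reads in Arrdc2 and 22.37 ± 2.63 M in GFP (SD, n = 5 each). The cell type label reads myoblast, whereas all 13 fixed myotube markers passed the filter on low values. Their summed level was 430144 to 466850 normalised reads in Arrdc2 and 472748 to 495932 in GFP. By the threshold given below, 4 of the 13 fell and 0 rose (30.8%, against 30.3% of all tested genes). Their median log2 difference was -0.091, with folds from 0.786 for Myh8 to 1.12 for Myh4. Of 6 markers of dividing cells 5 rose and 0 fell (83.3%), with summed levels of 13840 to 18204 normalised reads in Arrdc2 and 12212 to 14003 in GFP. In these bulk samples fewer cells of a type and less RNA per cell cannot be told apart. Of 5 tested fibroblast markers 2 rose (Col3a1 and Dcn) and 1 fell (Postn), 60% in all. The 7 matched summed to 61503 to 67999 normalised reads in Arrdc2 and 52355 to 61837 in GFP. Of 8 markers of undifferentiated myoblasts 3 rose (Pax7, Myf5 and Heyl) and 1 fell (Sdc4), 50% in all. Their summed levels were 8055 to 8814 in Arrdc2 and 7759 to 9010 in GFP. The part of these markers in the results was not tested. Under 10 normalised reads on average were found for 4 of 6 adipocyte, 4 of 5 osteoblast, 3 of 5 macrophage, 3 of 4 endothelial and 4 of 4 neural markers, and summed levels of the macrophage list reached 121 normalised reads in Arrdc2 and 120.2 in GFP. Of the few that were tested in those lists, Lpl and Tek rose and Pparg fell. Arrdc2 transcript itself averaged 132 ± 15.6 normalised reads in Arrdc2 and 102.7 ± 14.4 in GFP (SD, n = 5 each), 1.29-fold higher (95% interval 1.09 to 1.51; limma adjusted p = 0.0178; exact 2-sided permutation p = 0.0238), but this was not called on omitting Arrdc2 library 9 (limma adjusted p = 0.0570), GFP library 3 (0.0501) or GFP library 7 (0.0520), or with quantile normalization (0.0518) (all alternatives, 0.00832 to 0.0570).

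Transcripts of both fusogens and of M-cadherin showed no called difference, whereas Ncam1 and Dysf fell and Myof, Ano5 and Ehd2 rose in the Arrdc2 libraries, none by more than 1.20-fold. Thus 5 of the 10 genes passed the threshold, a limma adjusted p under 0.05 over all tested genes, where 30.3% of the 15223 tested genes did. Of these 3 were higher, against 14.5% of all tested genes, and 2 were lower, against 15.8%. Groups did not overlap for 4 of the 10, against 19.7% of all tested genes: 3 higher (8.70% of all) and 1 lower (1681 of 15223). The median absolute log2 difference on the deposited scale was 0.087 for the 10 genes and 0.048 for all tested genes, and the signed medians were -0.021 and 0.003. Deposited differences of genes with few reads are shrunk more, so these medians compare genes of unlike level. With only genes of a mean deposited value of at least 5 tested, 35.6% of 12581 passed, and 6 of the 10. All 10 are well expressed, and 41.1% of tested genes had a mean deposited value at least as high as the lowest of them. The number passing ranged from 3 to 7 when each library was left out in turn.

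**Figure D1:**
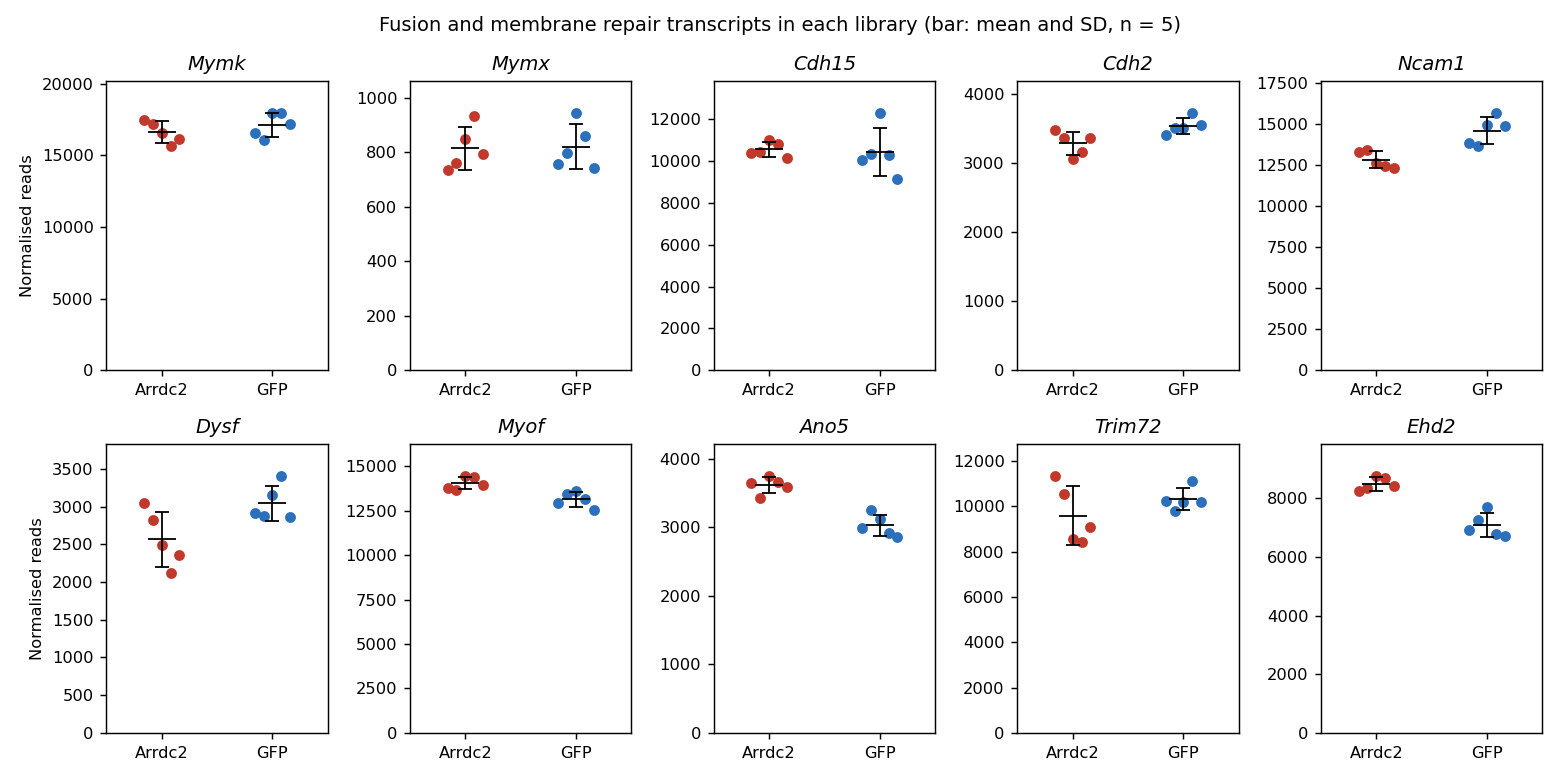
Normalised reads of the 10 genes in each library (y axis, from 0), with Arrdc2 libraries in red and GFP libraries in blue; bars show the mean and SD of 5 libraries. Groups separate for Ncam1, Myof, Ano5 and Ehd2, and the 5 Arrdc2 values of Dysf and Trim72 spread more widely than the GFP values.

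Myomaker, a multipass membrane protein needed on both fusing cells for hemifusion, was the most abundant of the 10 per length of transcript. It had 10995 ± 496 normalised reads per kilobase in Arrdc2 and 11332 ± 555 in GFP (SD, n = 5 each), and its lowest library stood above the highest library of every other gene. Mymk had 17472, 17213, 16578, 15640 and 16167 normalised reads in Arrdc2 libraries 6, 7, 9, 10 and 11, against 16542, 16046, 17942, 17925 and 17156 in GFP libraries 3 to 7. The groups overlapped, and Arrdc2 library 10 alone lay below the lowest GFP library. The fold was 0.970 (95% interval 0.915 to 1.03), and the log2 difference on the deposited scale was -0.03 ± 0.03 (SE; limma adjusted p = 0.473).

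Mymx encodes a micropeptide that acts after myomaker to open the fusion pore. Normalised reads of Mymx were 736, 762, 848, 935 and 793 in Arrdc2 libraries 6, 7, 9, 10 and 11, and 759, 798, 944, 859 and 742 in GFP libraries 3 to 7. The groups covered nearly the same range, and the highest library of each group exceeded its lowest by about 27.0% in Arrdc2 and 27.1% in GFP. The fold was 0.991 (95% interval 0.894 to 1.10; limma adjusted p = 0.930). Per kilobase, Mymx stood at 793 ± 76.8 normalised reads in Arrdc2 and 799 ± 80.2 in GFP (SD, n = 5 each), far below Mymk in every library. Reads of Mymx were 0.0493 ± 0.00688 of those of Mymk within an Arrdc2 library and 0.0479 ± 0.00357 within a GFP library (SD, n = 5 each). That ratio was not called different (log2 difference 0.03, exact 2-sided permutation p = 0.770, and 0.770 adjusted over the 3 ratios tested).

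M-cadherin, the cadherin of myoblasts and satellite cells, and N-cadherin, which is shared with neural and cardiac cells, both mediate calcium-dependent contact between myoblasts. Cdh15 had 10387, 10425, 10980, 10815 and 10152 normalised reads in Arrdc2 libraries 6, 7, 9, 10 and 11, against 10055, 10358, 12286, 10281 and 9127 in GFP libraries 3 to 7. All 5 Arrdc2 values fell inside the GFP range. Its fold was 1.02 (95% interval 0.937 to 1.10; limma adjusted p = 0.784). On the same strand the annotation has a second, overlapping gene model, Gm20388, so reads could have been assigned to either.

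Cdh2 had 3491, 3362, 3059, 3167 and 3368 normalised reads in Arrdc2 libraries 6, 7, 9, 10 and 11, against 3417, 3508, 3517, 3729 and 3556 in GFP libraries 3 to 7. In 4 of 5 Arrdc2 libraries it lay below the lowest GFP library, and library 6 lay inside the GFP range. The fold was 0.927 (95% interval 0.873 to 0.984), just outside the threshold (log2 difference -0.08 ± 0.03 SE, limma adjusted p = 0.0523). It was called lower once Arrdc2 library 6 was dropped (limma adjusted p = 0.0225), with libraries centred on their median (0.0281) and with a stricter filter on low values (0.0450), and the alternatives together gave 0.0225 to 0.215. Reads of Cdh2 were 0.312 ± 0.0253 of those of Cdh15 in Arrdc2 libraries and 0.343 ± 0.0381 in GFP libraries (SD, n = 5 each; exact 2-sided permutation p = 0.159, 0.238 over the 3 ratios). Without GFP library 5, whose Cdh15 value was the highest of all, the ratio was called lower in Arrdc2 (exact permutation adjusted p = 0.0476). The ratio was called in only 1 of 11 alternatives, whose exact permutation adjusted p-values ran from 0.0476 to 0.476.

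Of the adhesion genes in the group, only Ncam1 passed the threshold. NCAM1 is an immunoglobulin-type adhesion molecule on fusing myoblasts and young myotubes. Ncam1 had 13307, 13408, 12655, 12421 and 12320 normalised reads in Arrdc2 libraries 6, 7, 9, 10 and 11, against 13858, 13662, 14916, 15662 and 14907 in GFP libraries 3 to 7. Every Arrdc2 library lay below every GFP library. Ncam1 was 1.14-fold lower (95% interval 1.07 to 1.21; log2 difference -0.15 ± 0.03 SE; limma adjusted p = 0.00260), and it kept its call in every alternative, with adjusted p-values of 0.00135 to 0.0300. Opposite-strand gene models overlap Ncam1, Cdh2, Dysf and Trim72, and the kit keeps strand, but whether the counting used it is not stated. Dysf is also overlapped on its own strand by a processed pseudogene, Gm7498, so reads could have been assigned to either.

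**Figure D2:**
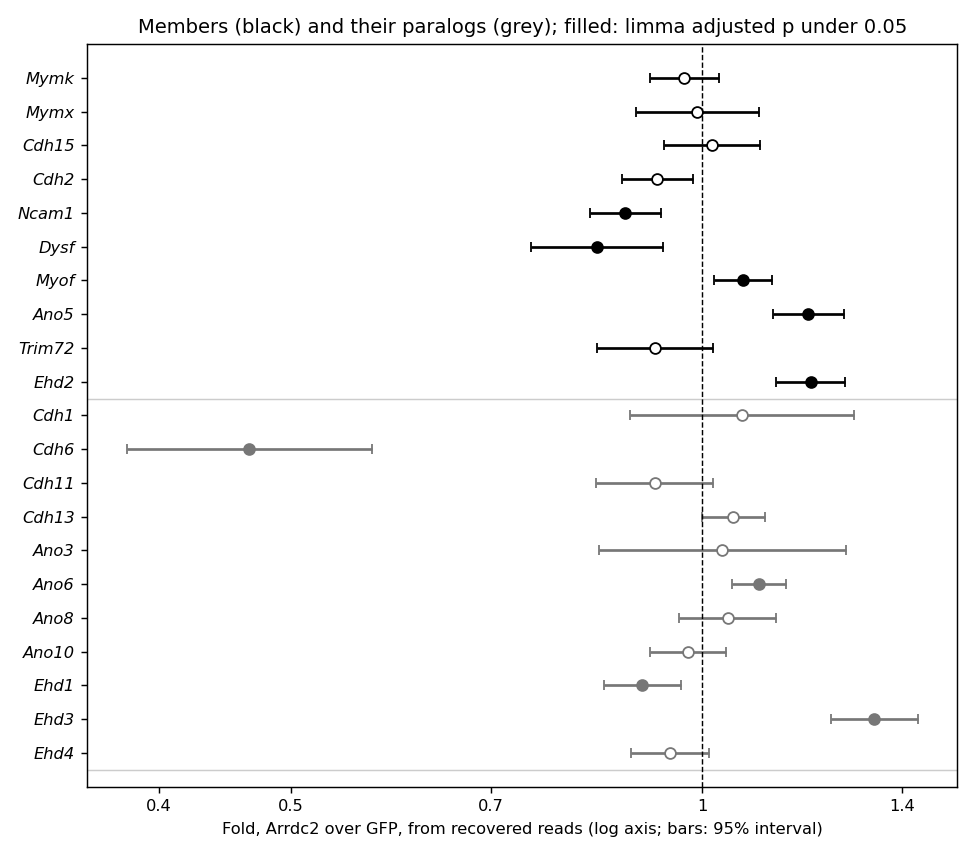
Fold of Arrdc2 over GFP from recovered reads, with 95% intervals on a log axis, for the 10 genes (black) and for cadherin, anoctamin and EHD paralogs with a mean of at least 50 normalised reads (grey); filled points passed limma's threshold. Ehd2, Ano5 and Myof lie right of 1 and Ncam1 and Dysf left of it, and among the paralogs Cdh6 lies furthest left and Ehd3 furthest right.

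Among the repair genes 3 rose and 1 fell. The promoter windows of these 4 genes are shown because the ferlins Dysf and Myof moved in opposite directions while Ehd2 and Ano5 moved together with Myof. Each window is from RefSeq on GRCm38.p6 and runs from 250 bases before to 50 bases after the annotated start, written 5′ to 3′ on the gene's strand, with E-boxes (CANNTG, the core that myogenic bHLH factors bind, palindromic and so the same on both strands) in capitals. Ehd2 lies at chr7:15967486-15967785 on the minus strand, Ano5 at chr7:51510779-51511078 on the plus strand, Myof at chr19:38043528-38043827 on the minus strand, and Dysf at chr6:84008348-84008647 on the plus strand.
Ehd2: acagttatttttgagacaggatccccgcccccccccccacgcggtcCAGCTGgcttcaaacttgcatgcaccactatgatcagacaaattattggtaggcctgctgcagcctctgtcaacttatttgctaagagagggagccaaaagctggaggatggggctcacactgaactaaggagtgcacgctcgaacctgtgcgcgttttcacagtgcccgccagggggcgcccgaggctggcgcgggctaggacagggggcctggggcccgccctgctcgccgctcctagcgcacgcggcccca
Ano5: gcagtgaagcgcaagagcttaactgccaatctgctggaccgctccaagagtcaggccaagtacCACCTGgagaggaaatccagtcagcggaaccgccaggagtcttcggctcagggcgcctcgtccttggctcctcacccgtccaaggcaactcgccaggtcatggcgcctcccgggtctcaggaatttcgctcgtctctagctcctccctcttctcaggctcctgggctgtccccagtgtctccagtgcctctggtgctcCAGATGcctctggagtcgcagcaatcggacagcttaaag
Myof: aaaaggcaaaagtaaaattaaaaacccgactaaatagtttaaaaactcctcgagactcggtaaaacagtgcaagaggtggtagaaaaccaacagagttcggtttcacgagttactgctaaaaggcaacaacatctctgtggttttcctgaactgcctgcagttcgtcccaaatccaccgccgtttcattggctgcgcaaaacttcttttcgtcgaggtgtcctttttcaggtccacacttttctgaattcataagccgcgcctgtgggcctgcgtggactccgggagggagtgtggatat
Dysf: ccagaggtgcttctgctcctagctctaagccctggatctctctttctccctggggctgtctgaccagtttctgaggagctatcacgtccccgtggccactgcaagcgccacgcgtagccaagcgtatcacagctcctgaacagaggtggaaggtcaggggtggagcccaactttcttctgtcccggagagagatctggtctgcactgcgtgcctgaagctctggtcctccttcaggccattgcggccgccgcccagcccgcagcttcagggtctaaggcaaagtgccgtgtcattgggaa

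These windows hold 1 E-box in Ehd2 (CAGCTG), 2 in Ano5 (CACCTG and CAGATG), 0 in Myof and 0 in Dysf. A second annotated start of Dysf, at chr6:84019136-84019435 on the plus strand, has 1 (CAACTG). Of 32851 windows of the same length, 72.3% hold at least 1 CANNTG and 16.3% hold CAGCTG. The windows of Cdh15 and Trim72 hold 4 and 3 E-boxes, and 6.49% of all windows hold at least 4. No window of these 6 genes holds a MEF2 motif or a CArG box, which occur in 0.557% and 1.63% of all windows. Mymk, Mymx, Cdh2 and Ncam1 were not analysed here for promoter motifs. CAGCTG is one form of CANNTG and is counted in both shares. A match is a description of these letters, not a binding site.

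EHD2 is a membrane-bending ATPase that stabilises caveolae and binds myoferlin. Ehd2 had 8245, 8331, 8760, 8704 and 8412 normalised reads in Arrdc2 libraries 6, 7, 9, 10 and 11, against 6931, 7271, 7697, 6790 and 6716 in GFP libraries 3 to 7. Every Arrdc2 library lay above every GFP library, and the Arrdc2 values spread by only 6.24% from lowest to highest. Ehd2 was 1.20-fold higher (95% interval 1.13 to 1.27; log2 difference 0.21 ± 0.03 SE; limma adjusted p = 7.92e-05).

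ANO5 is an anoctamin of intracellular membranes whose loss in people causes a limb-girdle muscular dystrophy. Ano5 had 3642, 3429, 3752, 3668 and 3584 normalised reads in Arrdc2 libraries 6, 7, 9, 10 and 11, against 2984, 3254, 3122, 2918 and 2862 in GFP libraries 3 to 7. The groups did not overlap. Ano5 was 1.20-fold higher (95% interval 1.13 to 1.27; log2 difference 0.20 ± 0.03 SE; limma adjusted p = 0.000118). Both Ehd2 and Ano5 kept their calls in every alternative, with adjusted p-values of at most 0.000642 for Ehd2 and 0.000840 for Ano5.

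Dysferlin and myoferlin are large, related calcium-binding membrane proteins with repeated C2 domains; myoferlin is abundant in myoblasts and at fusion, whereas dysferlin accumulates as fibres mature and is required for resealing. Myof had 13794, 13673, 14455, 14390 and 13967 normalised reads in Arrdc2 libraries 6, 7, 9, 10 and 11, against 12905, 13421, 13612, 13156 and 12542 in GFP libraries 3 to 7. The groups did not overlap, although the gap was small. Myof was 1.07-fold higher (95% interval 1.02 to 1.12; log2 difference 0.08 ± 0.03 SE; limma adjusted p = 0.0423). Its call was lost without any of Arrdc2 libraries 9, 10 and 11 or GFP libraries 3, 4, 6 and 7 (limma adjusted p = 0.0524 to 0.116), with median centring (0.0865) and without a filter on low values (0.0819).

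Dysf had 3046, 2815, 2487, 2119 and 2358 normalised reads in Arrdc2 libraries 6, 7, 9, 10 and 11, against 2918, 2871, 3154, 3406 and 2861 in GFP libraries 3 to 7. In 4 of 5 Arrdc2 libraries it lay below the lowest GFP library, while Arrdc2 library 6 lay inside the GFP range. Dysf was 1.19-fold lower (95% interval 1.07 to 1.33; log2 difference -0.19 ± 0.06 SE; limma adjusted p = 0.0153). Dropping GFP library 6 moved it past the threshold (limma adjusted p = 0.0511), as did testing with no filter on low values (0.0660), and the alternatives together gave 0.00137 to 0.0660.

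Within a library, reads of Myof per read of Dysf do not depend on how libraries are scaled. The ratio was 4.53, 4.86, 5.81, 6.79 and 5.92 in Arrdc2 libraries 6, 7, 9, 10 and 11, against 4.42, 4.68, 4.32, 3.86 and 4.38 in GFP libraries 3 to 7. In 4 of 5 Arrdc2 libraries it lay above the highest GFP library. The ratio was 1.28-fold higher in Arrdc2 (log2 ratio 2.47 ± 0.23 in Arrdc2 and 2.11 ± 0.10 in GFP, SD, n = 5 each; exact 2-sided permutation p = 0.0159, 0.0476 adjusted over the 3 ratios tested). Leaving out any of 7 libraries (Arrdc2 libraries 7, 9, 10 and 11, and GFP libraries 3, 6 and 7) raised that adjusted p to 0.0952. Fewer assignments exist once a library is left out, so the smallest possible p is larger. With a library left out, exact permutation adjusted p-values were 0.0476 to 0.0952 and the log2 difference was 0.2791 to 0.4251.

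**Figure D3:**
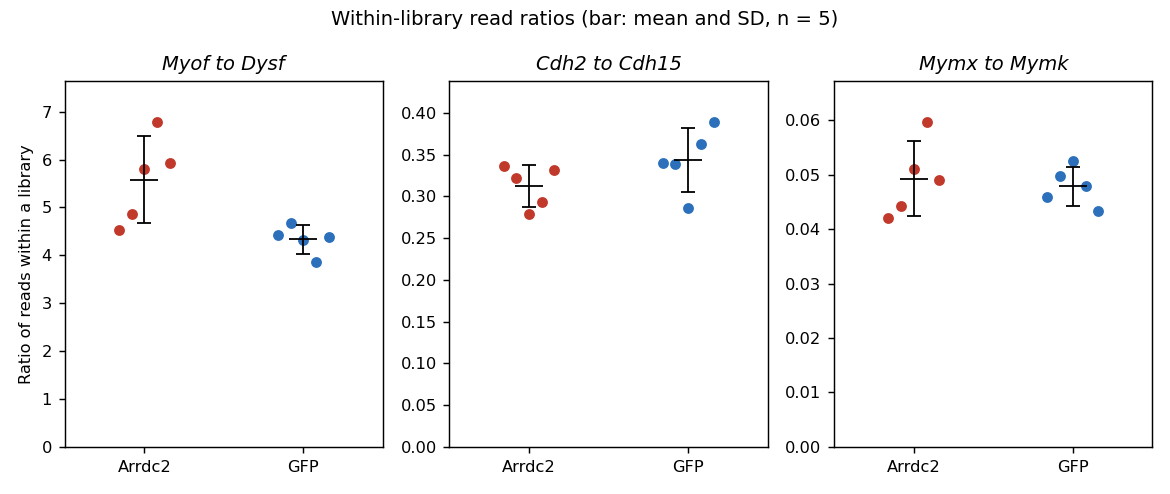
Ratio of reads between pairs of genes within each library (y axis, from 0), with Arrdc2 libraries in red and GFP libraries in blue; bars show the mean and SD of 5 libraries. The Myof to Dysf ratio reaches 6.79 in Arrdc2 and stays at or below 4.68 in GFP, whereas for Mymx to Mymk the Arrdc2 libraries, from 0.0421 to 0.0598, lie on both sides of the GFP libraries, from 0.0433 to 0.0526.

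TRIM72, also called MG53, is a muscle ubiquitin ligase that nucleates the vesicle patch at a membrane wound. Trim72 had 11345, 10541, 8538, 8409 and 9078 normalised reads in Arrdc2 libraries 6, 7, 9, 10 and 11, against 10249, 9807, 10186, 11132 and 10174 in GFP libraries 3 to 7. The Arrdc2 libraries lay on both sides of the GFP range, with library 6 above it and libraries 9, 10 and 11 below it. Its fold was 0.923 (95% interval 0.838 to 1.02; limma adjusted p = 0.213). It was called lower once Arrdc2 library 6 was dropped (limma adjusted p = 0.0215), and the alternatives together gave 0.0215 to 0.773.

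Per kilobase of annotated exon, the order of mean level in GFP libraries was Mymk, Trim72, Cdh15, Ncam1, Ehd2, Myof, Mymx, Cdh2, Ano5 and Dysf. In Arrdc2 libraries Ehd2, at 1659 ± 44.8 normalised reads per kilobase, stood above Ncam1, at 1480 ± 58.3, while in GFP libraries Ehd2 was at 1383 ± 79.1 and Ncam1 at 1685 ± 95.7 (SD, n = 5 each). Ano5 likewise stood at 462 ± 15.4 in Arrdc2 and 387 ± 20.4 in GFP, against 408 ± 21.5 in Arrdc2 and 439.6 ± 14.2 in GFP for Cdh2 (SD, n = 5 each). Ranges of Ano5 and Dysf in GFP libraries overlapped (366 to 416 and 344 to 409 normalised reads per kilobase). Lengths join all annotated exons of a gene and are approximate where isoforms differ.

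Within groups the 10 genes fell into 2 sets of 5 that varied together from library to library, a division made after the values were seen and not tested. After each group's mean was removed, Pearson r over the 10 libraries was positive for all 10 pairs among Mymk, Ncam1, Cdh2, Dysf and Trim72 (0.575 to 0.912). It was also positive for all 10 pairs among Mymx, Cdh15, Myof, Ano5 and Ehd2 (0.406 to 0.887). Of the 25 pairs between the sets 3 were positive, with r from -0.574 to 0.224. Mymk and Ncam1 were the closest pair (r = 0.912), then Dysf and Trim72 (r = 0.906), whereas the fusogens Mymk and Mymx had r = -0.063. Library 6 was the highest Arrdc2 library for Mymk, Cdh2, Dysf and Trim72, and library 10 the lowest for Mymk, Dysf and Trim72 and the highest for Mymx. Among GFP libraries, library 5 was the highest for Mymk, Mymx, Cdh15, Myof and Ehd2, and library 6 for Cdh2, Ncam1, Dysf and Trim72. These r values were not recomputed with a library left out, so a single library may weigh heavily in them.

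Marker levels varied with these sets in part. Within groups, the log2 summed level of the 13 myotube markers had r = 0.904 with Dysf, 0.816 with Mymk and 0.812 with Trim72. It had r = 0.678 with Ncam1 and 0.544 with Cdh2, and in the other set ran from -0.177 with Mymx to 0.318 with Cdh15. The summed level of 8 markers of undifferentiated myoblasts had r = 0.933 with Cdh15, 0.834 with Ehd2 and 0.739 with Myof. With Mymx and Ano5 it had r = 0.708 and 0.533, and in the set of Mymk it ran from -0.283 with Cdh2 to 0.335 with Mymk. The summed level of 6 markers of dividing cells had r = 0.830 with Myof, 0.758 with Ehd2, 0.741 with Mymx and 0.727 with Ano5, and -0.835 with Trim72. It had r = 0.517 with Cdh15, and -0.758 with Cdh2, -0.634 with Dysf, -0.501 with Mymk and -0.482 with Ncam1. Summed fibroblast markers followed the sets less closely, with r = 0.717 for Cdh15, 0.389 for Mymk, 0.200 for Ano5 and -0.314 for Cdh2. As given above, sums of the myotube markers were lower in Arrdc2 libraries and those of dividing cells were mostly higher. All Arrdc2 sums of undifferentiated myoblast markers fell inside the GFP range. The part of these markers in the differences of Dysf, Myof, Ano5 and Ehd2 was not tested. All such values share each library's depth and scaling, and within-group r with log2 depth ran from -0.127 for Ano5 to 0.600 for Mymx.

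**Figure D4:**
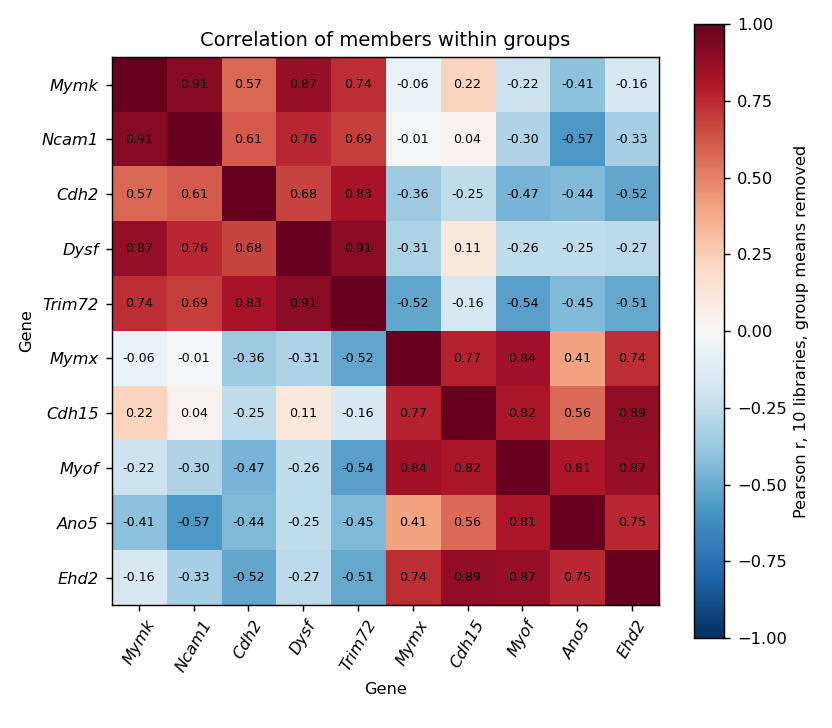
Pearson r between the deposited values of each pair of genes over 10 libraries after each group's mean was removed (colour, with r printed in each cell). Both blocks on the diagonal hold positive values only, from 0.575 to 0.912 and from 0.406 to 0.887, and 22 of the 25 pairs between them are below 0.

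Of 14952 other tested genes with a symbol, those most like Mymk within groups were Evpl (r = 0.973), Mpv17l2 (r = 0.954) and Xirp1 (r = 0.946), over 10 libraries. Evpl and Xirp1, an actin-binding protein of muscle, were lower in Arrdc2 libraries (limma adjusted p = 0.0267 and 7.06e-06), while Mpv17l2 was not called (limma adjusted p = 0.863). The level of Evpl was low, at a mean of 26.3 normalised reads in Arrdc2 and 39.9 in GFP. Those most like Mymx were Cst6, a secreted cysteine protease inhibitor (r = 0.955), Skp2, a ubiquitin ligase subunit of the cell cycle (r = 0.954), and Lima1, an actin-binding protein (r = 0.948). Cst6 and Skp2 were higher (limma adjusted p = 0.0410 and 0.00126) and Lima1 was not called (limma adjusted p = 0.0522). These 6 are the top of a ranking over all tested genes, so their r is high by selection.

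Most tested paralogs of the 10 genes were not called, and those called went in both directions. With the members counted, 33.3% of tested genes in the anoctamin list and 33.3% in the EHD list were called, against 30.3% of all tested genes. Cdh6, a classical cadherin expressed at a low level here, had 57.1, 40.5, 45.8, 53.7 and 62.3 normalised reads in Arrdc2 libraries 6, 7, 9, 10 and 11, against 100.7, 129, 91.6, 129 and 112 in GFP libraries 3 to 7. Every Arrdc2 library was lower, by 2.15-fold on average (95% interval 1.75 to 2.64; limma adjusted p = 6.12e-06), and the call held in every alternative. Cdh1, Cdh11 and Cdh13 were not called, at folds of 1.07 (95% interval 0.886 to 1.29), 0.923 (0.836 to 1.02) and 1.05 (0.999 to 1.11). Ehd3, an endosomal relative of EHD2, was 1.34-fold higher (850 ± 37.3 normalised reads in Arrdc2 and 635 ± 33.6 in GFP, SD, n = 5 each; limma adjusted p = 5.13e-06), whereas Ehd1, which acts in endocytic recycling, was 1.11-fold lower (limma adjusted p = 0.0201), and Ehd4 had a fold of 0.947 (95% interval 0.886 to 1.01). The call of Ehd1 ended in 5 of 17 alternatives, among them the omission of GFP library 5 (limma adjusted p = 0.0538) or 6 (0.0518). Ano6, a phospholipid scramblase, was 1.10-fold higher (limma adjusted p = 0.00346), while Ano1, Ano3, Ano8 and Ano10 were not called (limma adjusted p = 0.731, 0.751, 0.438 and 0.598). Of 6 ferlin genes, Dysf, Myof and Fer1l6 were tested, and Fer1l6 was at about 10 normalised reads (11.2 ± 4.43 in Arrdc2 and 7.91 ± 1.51 in GFP, SD, n = 5 each) and not called.

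In the 10 lists of fusion and repair genes, 107 tested genes lay outside the set described here, of which 18 rose and 14 fell (29.9%, against 30.3% of all tested genes), with a median log2 difference of 0.017 against 0.003. Among 20 tested genes that control fusion 3 rose and 4 fell (35%, against 30.3% of all tested genes), a median of -0.011. Cd9 and Cd81, tetraspanins that regulate fusion, were 1.21-fold and 1.14-fold higher (limma adjusted p = 0.000137 and 0.000564), and Jam2, an immunoglobulin-type junction protein, was 1.15-fold higher (0.0172). The interleukin-4 receptor subunit Il4ra was 1.26-fold lower (1166 ± 74.3 normalised reads in Arrdc2 and 1468 ± 70.9 in GFP, SD, n = 5 each; limma adjusted p = 4.86e-05). Adam12, a metalloprotease of fusing myoblasts, was 1.28-fold lower, the integrin subunit Itgb1 1.09-fold lower and the focal adhesion kinase Ptk2 1.09-fold lower. With total-read scaling in voom neither Itgb1 nor Ptk2 was called (limma adjusted p = 0.0602 and 0.0601). Itgb1 was also not called with quantile normalization (limma adjusted p = 0.279). The call of Jam2 ended without GFP library 3 (limma adjusted p = 0.0569) and without a filter on low values (0.0669).

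Among 25 tested genes of actin remodelling at fusion 2 rose and 3 fell, with a median of 0.008. That is 20% in all, against 30.3% of all tested genes. Dock1, a guanine nucleotide exchange factor needed for myoblast fusion, was 1.22-fold higher (825 ± 42.0 normalised reads in Arrdc2 and 677 ± 50.1 in GFP, SD, n = 5 each; limma adjusted p = 0.000644). Of those that fell, the adaptor Crkl was 1.09-fold lower and the Arp2/3 subunit Actr3 1.07-fold lower. The call of Crkl ended with quantile normalization (limma adjusted p = 0.0821) and with total-read scaling in voom (0.108), and that of Actr3 in 11 of 17 alternatives, among them the omission of Arrdc2 library 6, 7 or 11 or of any GFP library (0.0501 to 0.107). Wipf1 was 1.12-fold higher, and its call ended without Arrdc2 library 7 or 9 or GFP library 3 or 7 (limma adjusted p = 0.0565 to 0.0868). It also ended without a filter on low values (limma adjusted p = 0.0747).

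Of 14 tested cadherin, catenin and NCAM-type genes 2 rose (L1cam, 1.19-fold, and Ctnnal1, 1.19-fold) and 2 fell (Cdh6 and Ncam1). That is 28.6%, against 30.3% of all tested genes, and the list median was 0.023. The catenins Ctnna1, Ctnnb1 and Ctnnd1, which couple cadherins to actin, were not called (limma adjusted p = 0.455, 0.147 and 0.766).

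Caveolae are membrane pits whose necks EHD2 surrounds, and their list had the highest median of the 10 lists. Of 7 tested genes 4 rose and 0 fell (57.1%, against 30.3% of all tested genes), with a median log2 difference of 0.175. Cav1 rose 1.21-fold (1966 ± 157 normalised reads in Arrdc2 and 1633 ± 132 in GFP), Cav2 1.31-fold (542 ± 52.8 and 413 ± 31.4), Cavin2 1.28-fold (2376 ± 151 and 1851 ± 94.3) and Cavin3 1.18-fold (1635 ± 91.2 and 1380 ± 74.6; SD, n = 5 in each group). All 4 had groups that did not overlap, and they kept their calls in every alternative. The muscle-specific Cav3 and Cavin4 were not called, with folds of 0.888 (95% interval 0.801 to 0.983; limma adjusted p = 0.0658) and 0.931 (0.869 to 0.998; limma adjusted p = 0.116), nor was Cavin1 (1.06, 95% interval 1.01 to 1.12; limma adjusted p = 0.0959).

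Annexins, which bind wounded membrane in the presence of calcium, went both ways. With their S100 partners and Ahnak, 2 of 12 rose and 2 fell (33.3%, against 30.3% of all tested genes), a median of 0.029. Anxa6 rose 1.12-fold (25801 ± 604 normalised reads in Arrdc2 and 22951 ± 591 in GFP, SD, n = 5 each) and S100a10 1.10-fold. The S100a10 call ended without Arrdc2 library 9 or 10 or GFP library 6 (limma adjusted p = 0.0638 to 0.0760). It also ended without a filter on low values (limma adjusted p = 0.0763). Anxa3 was 1.24-fold lower, and Ahnak, a giant scaffold protein that binds dysferlin, was 1.18-fold lower (31951 ± 1558 normalised reads in Arrdc2 and 37731 ± 777 in GFP, SD, n = 5 each; limma adjusted p = 0.000132). Anxa1, Anxa2 and Anxa5, annexins of the repair site, were not called (limma adjusted p = 0.615, 0.310 and 0.686).

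Among 5 calpain genes the inhibitor calpastatin, Cast, was 1.09-fold higher and the proteases Capn1, Capn2 and Capn3 were not called, with a list median of 0.072. Calls made up 20% of that list, against 30.3% of all tested genes. In the last list, 17 genes of lysosomal exocytosis, ESCRT and related repair steps, 2 rose and 3 fell (29.4%), a median of -0.018. Smpd1, the acid sphingomyelinase released at wounds, was 1.13-fold higher (limma adjusted p = 0.00228), and the syntaxin Stx4a was 1.08-fold higher (0.0382). Pdcd6, the calcium sensor ALG-2 that recruits ESCRT proteins, was 1.13-fold lower (limma adjusted p = 0.00338), the ESCRT-III subunit Chmp4b 1.09-fold lower (0.0265) and the ESCRT ATPase Vps4b 1.10-fold lower (0.0126). The call of Vps4b ended with quantile normalization (limma adjusted p = 0.0713) and with total-read scaling in voom (0.0755). That of Chmp4b ended in 8 of 17 alternatives, among them the omission of Arrdc2 library 9 or 11 or GFP library 3, 6 or 7 (limma adjusted p = 0.0508 to 0.0875), and that of Stx4a in 9, among them the omission of Arrdc2 library 7, 10 or 11 or GFP library 3, 4, 5 or 6 (0.0566 to 0.0907).

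**Figure D5:**
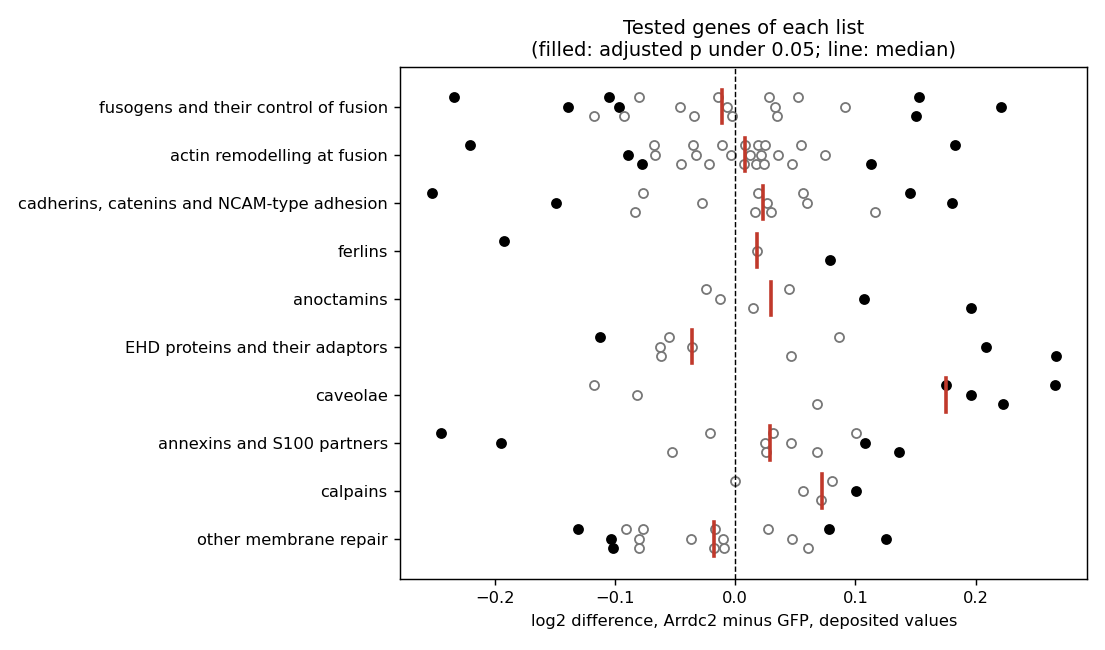
Difference of deposited values, Arrdc2 minus GFP on the log2 scale (x axis), for every tested gene of the 10 lists of fusion and repair genes; filled points passed limma's threshold and red lines are list medians. Called genes lie on both sides of 0 in most lists, while the caveolae list has a median of 0.175 and no called gene below 0.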

How the data were processed

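RNA from 10 C2C12 libraries was measured by strand-specific, paired-end sequencing of polyadenylated RNA, per the labels' protocols. All values stand in one table that the authors deposited, as regularized logs on the log2 scale: log2 read counts are scaled per library and each library's deviation from the gene mean is shrunk towards 0. Per the submitters' processing notes, GRCm39 is listed as genome build, and the tools named are STAR (2.7.10a) as well as DESeq2 (1.30.1); how reads were counted, with which annotation and strand setting, is not given in the labels or file. The 15223 genes whose mean value reached 3 were tested by limma 3.58.1 (R 4.3.3) with group as the sole term and variances moderated along a trend, and Benjamini-Hochberg adjustment over all of them. Log2 differences, their SE and limma adjusted p-values come from this fit, and the shrinkage makes those differences understate the change.

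The penalised negative binomial equations that define such values were inverted to give the read counts. The parameters were fitted on 16054 genes and checked on 16053 others, where 99.1% of values lay at most 0.1 reads off a whole number (20% by chance; genes averaging 1 read or more), and 89.6% above a mean of 10000 reads. Recovered depth was 18.93 to 28.65 M reads. Folds and 95% intervals come from limma voom on these reads. Pairs of libraries in the same group differed by a mean chi-square of 2.53 to 16.9 per gene, so none agreed within sampling noise. The steps were also run on simulated data whose spread between libraries was set below the fitted one, with outcomes not given here. The same parameters made and inverted those values, so that run does not check the inversion of the deposited values. Alternatives were median centring, quantile normalization, filters, library weights, voom on recovered reads or total reads, and leaving out each library. Within-library ratios were compared by exact permutation over 252 assignments, with a smallest possible p of 0.00794.

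Symbols came from a GENCODE vM21 table, which matched 52029 of 57010 identifiers; that annotation is on GRCm38 and gave exon lengths and overlaps only. The members and lists were chosen with earlier results of these data known. The text names all members, their tested paralogs, list genes that passed the threshold with groups that did not overlap (except 1 actin remodelling gene that fell and is not reported here), and the 3 genes most like Mymk and Mymx; other list genes were named after their values were seen. Kirrel1 and Sh3px1 duplicate listed genes under other names, and Ahnak2 and Vamp7 had no match and were not analysed here.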

Additional observations from a re-analysis of the deposited data

How the results depend on the processing

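Gene calls and their counts were recomputed under 17 alternatives: 7 other settings and 10 fits that leave out a library. The ratios had 11, and list medians and correlations were not recomputed. The number of called genes stayed within 1.5 times of 4616 in all of them, from 3697 to 4931 (3920 to 4598 with a library left out). The number of called fusion and repair genes was 3 without a filter on low values and 3 to 7 with a library left out; 3 was reached without GFP library 6. Of all calls 47.9% were rises as reported (2212 higher, 2404 lower), 37.4% with median centring (1766 higher, 2960 lower) and 63.3% by voom with total reads (3063 higher, 1774 lower). Among the called genes of the 10 and of the lists, no direction reversed. The difference of Arrdc2 transcript was 0.0851 to 0.1275 with a library left out and missed the threshold under quantile normalization at 0.0861 (adjusted p = 0.0518). With a library left out, the log2 difference of the Myof to Dysf ratio was 0.2791 to 0.4251, that of Cdh2 to Cdh15 -0.197 to -0.0858 and that of Mymx to Mymk -0.0385 to 0.0875. Of 23 called list genes outside the 10 whose groups did not overlap, 19 kept their call and direction in all 17 alternatives. Crkl, Vps4b, Ptk2 and Actr3 were the other 4. Of 9 called list genes whose groups overlapped, 2 (Ctnnal1 and L1cam) kept their call in all 17. The cause of the lost calls was not tested. Depth limits genes with few reads, such as Cdh6 and Fer1l6, more than the 10 genes. No paired analysis was possible because the numbers in the column names are not the replicate numbers of the labels.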
